A study of Sus scrofa with 8 samples.

Results

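Connexins are the proteins of gap junctions, and the genes GJA1, GJA4, GJA5, GJC1 and GJD3 were taken by their symbols from a table of left ventricular transcripts. A row was found for 4 of the 5 genes, in a table of 14718 genes, and GJD3 was not analysed here. All 4 were among the 11660 genes that passed the filter on low values, at least 10 normalized counts in at least 4 libraries. The libraries came from 8 pigs, 4 wild type (WT) and 4 gene-edited pigs of a long QT syndrome model, called mutant here. Of the mutant pigs, 3 carry the genotype label of a KCNH2 mutation, and 1, mutant replicate 4, carries that of a KCNH3 mutation, although the series names KCNH2 alone. KCNH2 encodes the potassium channel of the rapid delayed rectifier current. The labels give no strain, age, sex, treatment, litter, batch or nature of the edit, and they do not say how many founder animals or clones the mutant pigs come from. Replicate numbers serve only as names. Nothing in the labels says how the animals are related or were handled, so a p-value here speaks of the spread among these 8 samples, which may in part be technical.

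A gap junction channel is made when half-channels of connexin subunits in neighbouring cells dock, so that ions and small molecules pass directly from cell to cell. In the ventricle these channels are gathered at the intercalated discs, where they carry the action potential from one myocyte to the next. GJA1 encodes the main connexin of working ventricular myocytes and is also used by fibroblasts and vascular cells. GJC1 encodes a connexin of low conductance that is prominent in the embryonic heart, in the nodes and conduction system, and in vascular smooth muscle. GJA5 encodes the connexin of atrial myocytes, of His-Purkinje fibres and of arterial endothelium, and GJA4 encodes a connexin of arterial endothelium. RefSeq lists CX43 as a synonym of GJA1, cx45 of GJC1 and Cx37 of GJA4.

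The libraries did not resemble each other equally well, and WT replicates 3 and 4 stood apart. Depth was 15.9 to 22.4 M reads (M is the SI prefix mega), but 13 mitochondrially encoded protein genes took up 31.7% to 87.9% of the reads in WT and 15.9% to 27.5% in mutant libraries. Reads of nuclear genes were therefore fewest in WT replicates 3 and 4, at 2.53 M and 7.53 M, against 11.5 M to 16.2 M elsewhere. The ventricular light chain genes MYL2 and MYL3 were abundant in every library, and none of the 14 measured ventricular myocyte markers was without reads in any library. MYL7, an atrial light chain gene, was not analysed here. Of the 12 measured atrial markers, BMP10 and MYBPHL were among those at 0 reads in at least 4 libraries, and of 20 conduction system markers, CNTN2, HCN4 and ISL1 were. Other members of both lists had many reads, such as the atrial light chain gene MYL4, with 434 to 5770 normalized counts in wild-type and 95.3 to 2785 in mutant libraries, and the conduction list's PCP4, with 4052 to 6464 and 3398 to 4785; these 2 were chosen after their values were seen. KCNH2 itself had 148 to 1909 normalized counts in wild-type and 798 to 1839 in mutant libraries (limma adjusted p = 0.438), which checks no label, since the nature of the edit is not given. The ventricular myocyte markers had a higher score (mean over genes of the log2 level minus its mean over the 8 libraries) in every mutant than in any wild-type library. Scores were 0.17 to 0.36 for mutant and -1.10 to 0.13 for wild-type libraries, and summed normalized counts were 830056 to 874907 against 557346 to 778294. The margin was narrow and the list was mixed. Of the 14 markers 10 were higher in mutant libraries, against 56.9% of all genes, and 4 were lower, HEY2, TNNT2, TNNI3 and TNNC1. In 2, MYH7 and RYR2, every mutant library lay above every WT library, as in 6.17% of all genes. MYH7 alone had 95433 to 146085 normalized counts in WT and 233493 to 305804 in mutant libraries. In bulk tissue, fewer cells of a type and less RNA per cell cannot be told apart.

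GJA1, the main ventricular connexin, split the WT libraries into 2 high and 2 low ones. Its normalized counts (reads divided by 1 size factor per library) were 16778, 17418, 4549 and 2212 across wild-type replicates 1 to 4. They were 9779, 13718, 14045 and 12644 in mutant replicates 1 to 4. All 4 mutant libraries thus lay between the 2 low and the 2 high WT libraries. The wild-type mean was 10239 ± 7981 and the mutant mean 12547 ± 1940 (SD, n = 4 each). On the log2(normalized count + 1) scale, which is used for every limma difference here and understates the change of low genes, the difference of mutant minus WT was 0.75 ± 0.62 (SE), with a 95% interval of -0.64 to 2.15, and it did not pass (limma adjusted p = 0.574). Without WT replicates 3 and 4 the difference turned to -0.46 (limma adjusted p = 0.374), so its direction rested on those 2 libraries. Without WT replicate 4 alone it was 0.18. The low GJA1 level of these libraries was also seen against nuclear reads only, with 1632 and 1758 GJA1 reads per M nuclear reads in WT replicates 1 and 2, 370.5 and 242 in WT replicates 3 and 4, and 987 to 1435 across the mutant libraries.

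GJC1 had a lower level in all mutant ventricles than in any wild-type one. Its normalized counts were 979, 745, 1681 and 752 across wild-type replicates 1 to 4. They were 386, 556, 402 and 475 in mutant replicates 1 to 4. The highest mutant count was thus below the lowest wild-type count, and WT replicate 3 was the highest of all. GJC1 was the 1 member of 4 with groups that did not overlap in this direction, as 5.22% of the 11660 genes did. The wild-type mean was 1039 ± 441 and the mutant mean 455 ± 77.8 (SD, n = 4 each). The log2 difference of mutant minus WT was -1.12 ± 0.30 (SE), with a 95% interval of -1.79 to -0.46. Its unadjusted p was 0.00384 (limma), where 6.80% of genes were lower and 7.06% higher with an unadjusted p under 0.05, and it did not pass over all genes (limma adjusted p = 0.226). No gene passed in limma, 0% of those tested, although 793 were lower and 823 higher at an unadjusted p under 0.05.

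**Figure D1:**
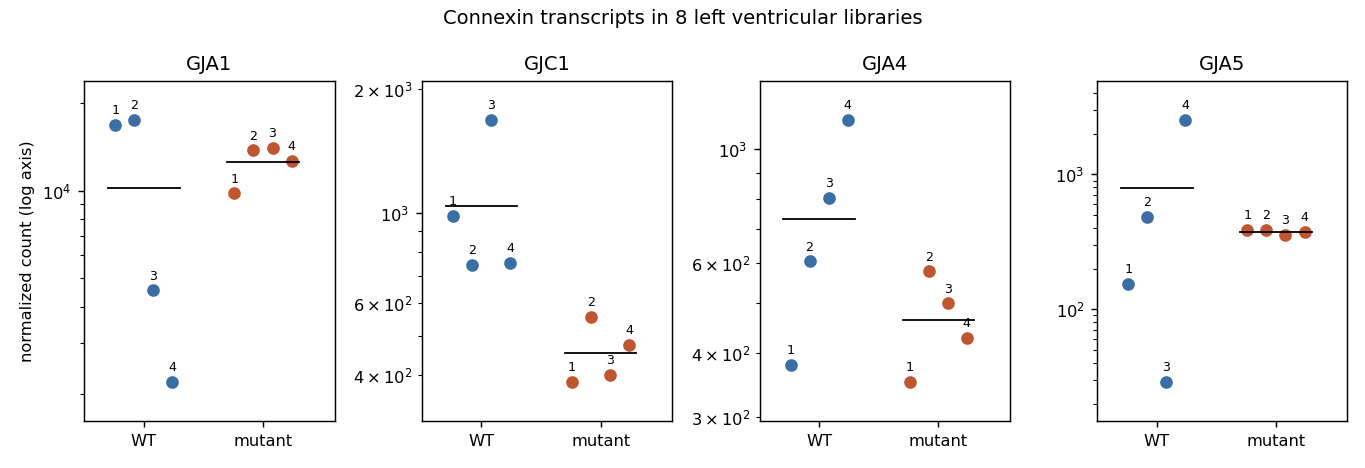
Normalized counts on a log axis of GJA1, GJC1, GJA4 and GJA5 in each library, with WT libraries in blue, mutant libraries in orange, replicate numbers above the points and the group mean as a line. GJC1 is the panel in which the groups do not overlap, with WT points from 745 to 1681 and mutant points from 386 to 556.

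The call on GJC1 depended on the test and on the mutant libraries used. The authors' deposited table gives GJC1 a log2 fold change of -1.19 with an adjusted p of 0.0217 and calls 412 genes, 3.23% of those with an adjusted p, lower. DESeq2 on the recovered reads gave GJC1 -1.19 (DESeq2 adjusted p = 0.0216), and it called 3.24% of genes lower. The quasi-likelihood test of edgeR gave -1.17 and did not call it (edgeR adjusted p = 0.194); it called no gene, and 1730 genes had an unadjusted p under 0.05. DESeq2 with 1 library left out called GJC1 in 5 of 8 fits. It was lost without mutant replicate 1, 3 or 4 (DESeq2 adjusted p = 0.0870, 0.138 and 0.132). Without mutant replicate 3, 1.01% of genes were called lower, and without mutant replicate 4, 0.743%. Over the 8 fits the number of genes called in either direction ranged from 128 to 1027, so the loss of calls was not particular to GJC1. Without WT replicates 3 and 4 together, GJC1 was still called by DESeq2, at -0.94 (DESeq2 adjusted p = 0.0325), where 3.09% of genes were called lower and 2.47% higher. In limma the same subset gave -0.92 (limma adjusted p = 0.164). Without mutant replicate 4, the library with the KCNH3 label, limma gave 0.75 for GJA1, -1.15 for GJC1, -0.54 for GJA4 and 0.46 for GJA5, close to the values with it.

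**Figure D2:**
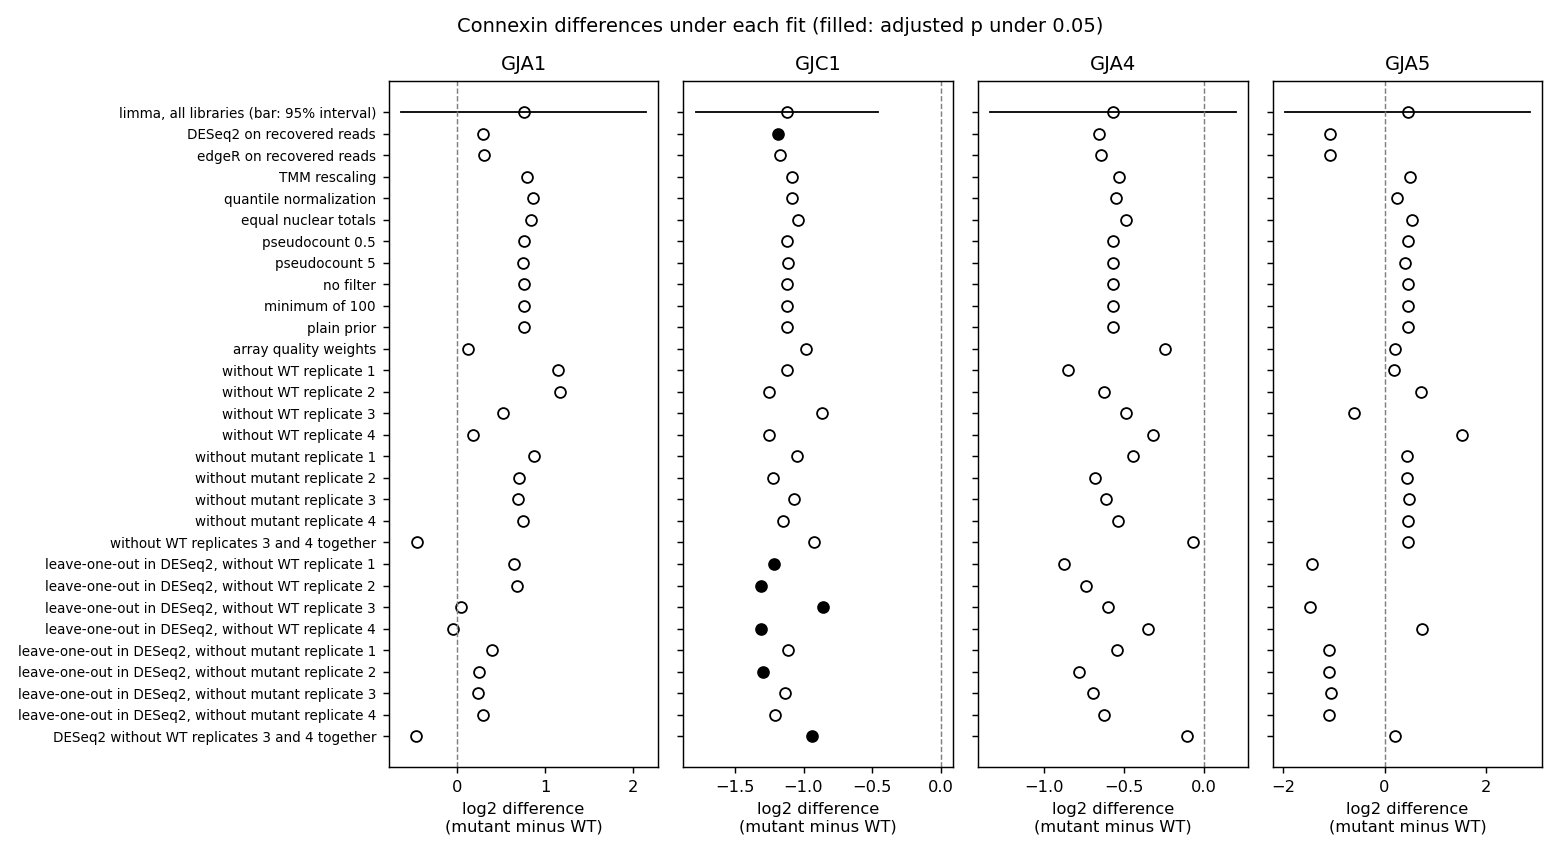
Log2 difference of mutant minus WT for each connexin under every fit, 1 row per fit, with filled points where the adjusted p was under 0.05 and a bar for the 95% interval of limma with all libraries. All points of GJC1 lie below 0, between -1.31 and -0.86, whereas the points of GJA1 and GJA5 lie on both sides of 0; GJA5 has no point for DESeq2 without WT replicate 2.

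The contrast of GJC1 with GJA1 was tested within libraries, where the size factor cancels. GJC1 amounted to 5.83%, 4.27%, 37.0% and 34.0% of the GJA1 count across wild-type replicates 1 to 4. It amounted to 3.95%, 4.05%, 2.86% and 3.75% in mutant replicates 1 to 4. Every mutant ratio lay below every WT ratio, and WT replicates 3 and 4 were far above the other 6 libraries. The mean log2 ratio was -2.91 ± 1.64 for wild type and -4.78 ± 0.23 for mutant (SD, n = 4 each). These differed by -1.88, and the two-sided exact permutation test gave p = 0.0286, which is as low as 70 assignments permit. Adjusted over the 3 ratios to GJA1 that were computed, the exact permutation p was 0.0857 and did not pass. Most of that difference came from WT replicates 3 and 4: without them it was -0.46, with an exact permutation p of 0.0667, the lowest value that 15 assignments can give. In that subset both genes were lower in mutant libraries, GJC1 by a log2 difference of -0.92 and GJA1 by one of -0.46. The nearest pair of libraries differed by no more than counting error. GJC1 made up 4.10% of the reads of both genes in WT replicate 2 (Wilson 95% interval 3.84% to 4.38%) and 3.89% in mutant replicate 2 (3.63% to 4.18%).

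The exact permutation p of the ratio rose when any 1 mutant library was left out, while the ratio difference changed little. The groups then still did not overlap, so the rise singles out no mutant library. Without mutant replicate 1, 2 or 4 the exact two-sided permutation p was 0.143, and without mutant replicate 3 it was 0.171, with differences of -1.93 to -1.76. Without any 1 WT library it was 0.0286, the lowest value possible with 35 assignments. The differences were then -2.42 to -1.38.

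**Figure D3:**
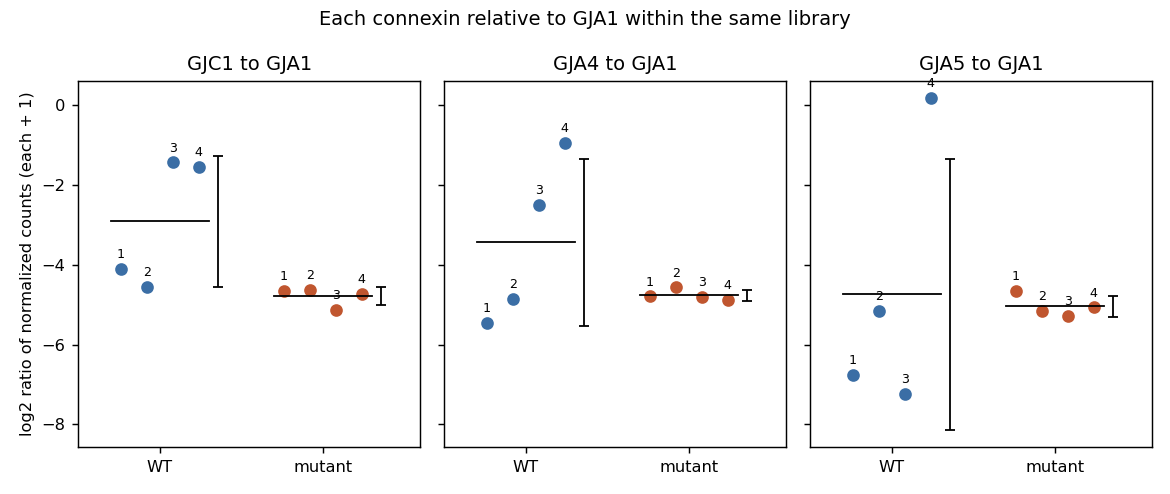
Log2 ratio of GJC1, GJA4 and GJA5 to GJA1 within each library, with replicate numbers, the group mean as a line and an error bar of 1 SD (n = 4). Mutant libraries lie close together for every ratio, with SDs of 0.23, 0.14 and 0.27, whereas WT libraries spread with SDs of 1.64, 2.09 and 3.41.

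GJA4, which encodes a connexin of arterial endothelium, varied more among WT than among mutant libraries. Its normalized counts were 379, 604, 804 and 1140 across wild-type replicates 1 to 4 and 351, 577, 499.8 and 428 across mutant replicates 1 to 4. The groups overlapped, since WT replicate 1 lay below 3 of the 4 mutant libraries. The log2 difference was -0.57 ± 0.34 (SE), with a 95% interval of -1.34 to 0.20, and it did not pass (limma adjusted p = 0.462). It shrank to -0.32 without WT replicate 4 and to -0.07 without WT replicates 3 and 4. Its ratio to GJA1 differed by -1.32 (exact two-sided permutation p = 0.400), and by 0.39 without those 2 libraries. Adjusted over the 3 ratios the exact permutation p was 0.600.

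GJA5, the connexin gene of atrial myocytes, conduction fibres and arterial endothelium, had the widest range of the 4 genes. Its normalized counts were 154, 484, 29.1 and 2520 across wild-type replicates 1 to 4. The count of WT replicate 3 rested on 6 reads and that of WT replicate 4 on 2077 reads. In mutant replicates 1 to 4 the counts were 385, 385, 358 and 375, a range of 1.08-fold against 86.7-fold in WT. The WT libraries lay on both sides of the mutant libraries. The log2 difference was 0.46 ± 1.08 (SE), with a 95% interval of -1.97 to 2.88 (limma adjusted p = 0.856). Leaving out WT replicate 3 gave -0.61, and leaving out WT replicate 4 gave 1.52. DESeq2, which weighs counts rather than their logarithms, gave -1.09 (DESeq2 adjusted p = 0.557). The ratio of GJA5 to GJA1 differed by -0.30 (exact two-sided permutation p = 0.971, and the same after adjustment over the 3 ratios), and by 1.34 without WT replicate 4 (exact permutation p = 0.0571). The direction of the GJA5 difference thus depended on the test and on single wild-type libraries.

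The mean score of arterial endothelial markers was highest in WT replicate 4, as the GJA5 and GJA4 counts were. Of 16 listed arterial genes 15 passed the filter, and over the 13 of these that are not connexins the score was 0.99 in WT replicate 4, -0.89 in WT replicate 3, -0.35 and 0.01 in WT replicates 2 and 1, and -0.08 to 0.24 in mutant libraries. By this score WT replicate 4 was the highest and WT replicate 3 the lowest, as for GJA5. The low score of WT replicate 3 leaned on genes near the floor there. CXCR4 had 0 reads and EFNB2 had 2 reads in that library. In the other 7 libraries their normalized counts were 14.7 to 135 and 164 to 709. Whether WT replicate 3 stays lowest without these genes was not tested. By summed normalized counts of these 13 genes WT replicate 4 was again the highest, at 22581, but WT replicate 2 was the lowest, at 11348, and WT replicate 3 had 13778. The sums were 11348 to 22581 in WT and 11797 to 14395 in mutant libraries. BMX, which did not pass the filter, was without reads in at least 1 library. SEMA3G, a secreted semaphorin gene of arterial endothelium that was chosen here after its values were seen, reached 5832 normalized counts in WT replicate 4, against 152 to 377 for wild-type replicates 1 to 3 and 421 to 1194 for mutant libraries. Not every arterial marker was high there. UNC5B and FBLN5, picked in the same way, had their lowest counts in WT replicate 4, at 133 and 2077. The general endothelial list, with 17 of 17 members measured, was also highest in WT replicate 4, at 1.02, against -0.78 to 0.41 in the other 7 libraries. WT replicate 4 had the lowest score of the 14 ventricular myocyte markers, with all other libraries at -0.05 or above, and the lowest GJA1 count. ACTC1, the cardiac actin gene, also chosen after its values were seen, had 1752 normalized counts there and 32209 to 234540 in the other libraries. Other members of the list were mixed. MYL3 and RYR2, chosen in the same way, were also lowest in WT replicate 4, at 35035 and 2441 normalized counts, but some members were not. The troponin genes TNNI3 and TNNC1, likewise chosen after their values were seen, were highest in WT replicate 4, at 139399 and 60545 normalized counts. The part of cell composition in the connexin values was not tested.

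Other cell type markers stood beside GJC1 as follows. Smooth muscle and pericyte markers, of which 14 of 15 passed the filter, had scores of 0.29, -0.84, 0.20 and 0.39 across wild-type replicates 1 to 4 and -0.21 to 0.08 in mutant libraries, so these groups overlapped where those of GJC1 did not. In their sums, 15701 to 41891 in WT and 19508 to 31372 in mutant libraries, WT replicate 3 was the highest, as it was for GJC1. Fibroblast markers, 15 of 15 measured, had the highest score in WT replicate 3, 1.17, and the lowest in WT replicates 4 and 2, -1.34 and -1.21, with mutant libraries at -0.11 to 0.64. Conduction system markers, of which 15 of 20 passed the filter, had scores of -0.74 to 0.39 in WT and 0.12 to 0.24 in mutant libraries. Both the mitochondrial share of reads, higher in every WT library, and the ventricular myocyte score, lower in every WT library, separated the groups as GJC1 did. The score did so by a narrow margin, with 0.13 in the highest WT and 0.17 in the lowest mutant library. The part of the mitochondrial share and of the score in the result was not tested.

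**Figure D4:**
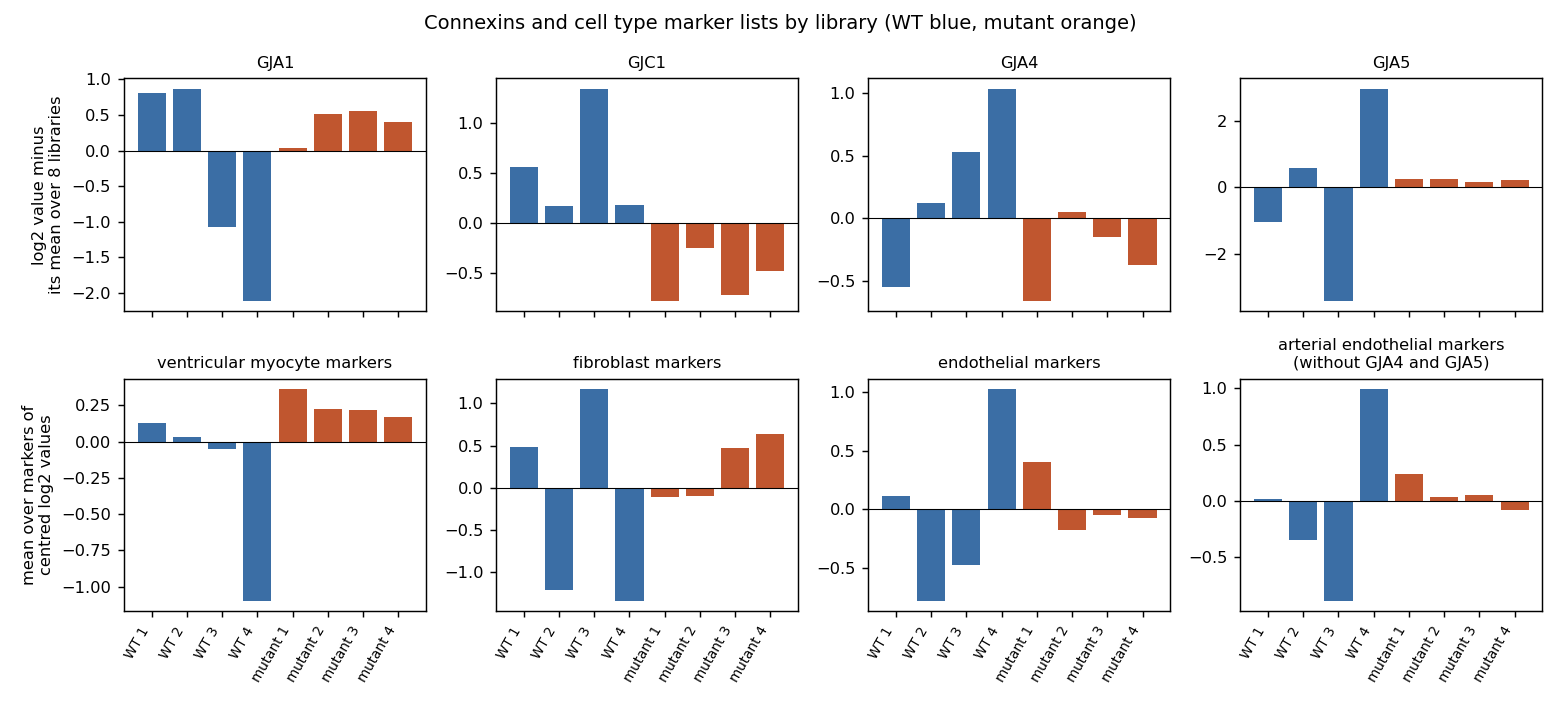
Level of each connexin (log2 value minus its mean over the 8 libraries, upper row) and mean centred log2 level of 4 marker lists (lower row), by library, with WT in blue and mutant in orange. WT replicate 4 has the highest GJA5 and arterial levels and the lowest GJA1 and ventricular myocyte levels, and GJC1 is above its mean in all 4 WT libraries and below it in all 4 mutant libraries.

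The split of connexin reads among the 4 genes was nearly constant in mutant libraries and not in WT. These shares are of reads, with no correction for transcript length, so they are compared between libraries and not between genes. GJA1 took 91.7%, 90.5%, 64.4% and 33.4% of the connexin reads across wild-type replicates 1 to 4, and 89.7% to 91.8% across mutant libraries. The GJA1 shares of WT replicates 1 and 2 thus lay within the mutant range, and those of WT replicates 3 and 4 lay below it. GJC1 took 5.35%, 3.87%, 23.8% and 11.4% across wild-type replicates 1 to 4, and 2.63% to 3.65% across mutant libraries. The share in WT replicate 3 had a Wilson 95% interval of 21.7% to 26.1%, since it rested on 1458 connexin reads, against 5460 to 23017 in the other libraries. GJA5 took 38.0% in WT replicate 4 (36.8% to 39.3%) and 0.412% to 2.51% among wild-type replicates 1 to 3. In mutant libraries its share was 2.34% to 3.54%, and that of GJA4 was 3.07% to 3.79%. Intervals cover counting error only. The summed normalized counts of the 4 genes were 18290, 19250, 7063 and 6624 across wild-type replicates 1 to 4 and 10902 to 15304 across mutant libraries.

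**Figure D5:**
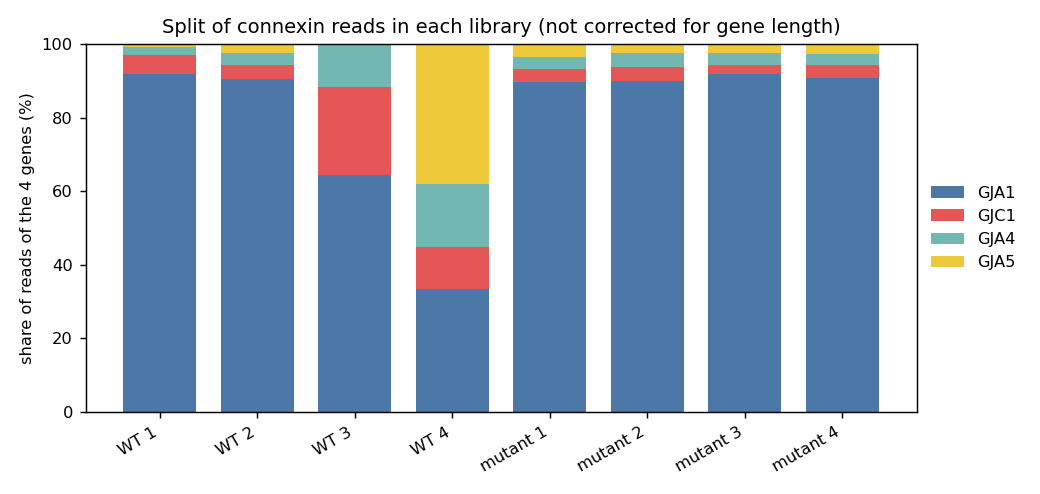
Share of the reads of GJA1, GJC1, GJA4 and GJA5 in each library, as stacked bars that add up to 100%, not corrected for gene length. GJA1 takes 89.7% to 91.8% in all mutant libraries and in WT replicates 1 and 2 takes 91.7% and 90.5%, against 64.4% and 33.4% in WT replicates 3 and 4.

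Of 19 other connexin and pannexin genes listed, 9 had a row and 3 passed the filter, GJC3 and PANX1 among them. None of the 3 passed the test in limma. GJC3, a connexin gene known from glia, had 41.5 to 70.4 normalized counts in WT and 38.4 to 90.4 in mutant libraries. PANX1, which encodes a channel of the cell membrane rather than of gap junctions, had 1.21 to 35.4 in WT and 13.9 to 23.2 in mutant libraries. GJA9 did not pass the filter, but its mutant values all lay below its WT values, as did those of 5.22% of the 11660 genes that passed. It had 39, 17, 11 and 4 reads across wild-type replicates 1 to 4 and 3, 3, 3 and 1 across mutant replicates 1 to 4. The authors' deposited table calls GJA9 lower, as it calls 3.23% of genes, with a log2 fold change of -3.84 and an adjusted p of 0.00411. Beside GJC1 it was the other connexin gene called there, out of 9 family members with an adjusted p. Without the filter, limma gave -2.92 and did not call it (limma adjusted p = 0.263), and DESeq2 lost the call without mutant replicate 4 (DESeq2 adjusted p = 0.0549). GJA10, GJB7, GJD2 and PANX2 had at most 10 reads in any library. The annotated span of GJA10 overlaps that of BACH2 in RefSeq, so its few reads cannot be assigned to it alone.

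Genes that deliver the GJA1 product to the intercalated disc and hold it there had mostly positive differences. Of 21 measured members of 23 listed, 16 were higher and 5 lower, with a median log2 difference of 0.53, against 56.9% higher and a median of 0.12 over all 11660 genes. None passed in limma. In 5 of the 21 every mutant library lay above every WT library, as in 6.17% of all genes, and the median was 0.19 without WT replicates 3 and 4. DSP, which encodes desmoplakin of the desmosome, had 3577, 3968, 1734 and 1059 normalized counts across wild-type replicates 1 to 4 and 6195 to 7497 across mutant libraries, a log2 difference of 1.62 ± 0.41 (SE). WT replicates 3 and 4 were again the lowest libraries, as for GJA1. The desmosomal plakophilin gene PKP2 differed by 1.06 ± 0.33 (SE). The kinesin heavy chain gene KIF5B differed by 0.78 ± 0.25 (SE), and TJP1, the scaffold that binds the tail of the GJA1 product, by 0.78 ± 0.26 (SE). DSP was the 1 member that the authors' deposited table calls, higher, as it calls 1.32% of genes.

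Kinases and phosphatases that act on connexins showed no common direction. Of 19 members 11 were higher and 8 lower, with a median of 0.15, or -0.14 without WT replicates 3 and 4, and none passed in limma. The protein kinase C gene PRKCA had 49.3 to 107 normalized counts in WT and 94.9 to 210 in mutant libraries. Its log2 difference was 1.11 ± 0.43 (SE). MAPK7 differed by -0.53 ± 0.22 (SE), SRC by 0.60 ± 0.30 (SE) and MAPK8 by 0.43 ± 0.23 (SE). MAPK7 was the 1 member of 19 whose groups did not overlap, and 5.22% of all genes were lower in that way. None of the 19 is called in the authors' deposited table.

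Genes of connexin turnover, which encode ubiquitin ligases and the endocytic and sorting machinery, had differences of both signs. Of 16 measured members 10 were higher and 6 lower, with a median of 0.49, and none passed in limma. Without WT replicates 3 and 4 the median was 0.17. Groups did not overlap in 3 members that were higher and in 3 that were lower, against 6.17% and 5.22% of all genes. TRIM21, a ubiquitin ligase gene, had 130, 195, 126 and 289 normalized counts across wild-type replicates 1 to 4 and 52.3 to 89.6 across mutant libraries, a log2 difference of -1.31 ± 0.39 (SE). It is the 1 member called, lower, in the authors' deposited table, as 3.23% of genes are. The ubiquitin ligase gene SMURF1 differed by -0.76 ± 0.24 (SE) and the endosomal sorting gene HGS by -0.78 ± 0.27 (SE). CLTC, the clathrin heavy chain gene, differed by 1.09 ± 0.34 (SE).

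Transcription factors known to act on connexin promoters were mixed as well. Of 26 measured members 15 were higher and 11 lower, with a median of 0.29, or -0.12 without WT replicates 3 and 4, and none passed in limma. TBX20, a T-box factor of cardiac myocytes, had 254, 292, 315 and 29.1 normalized counts across wild-type replicates 1 to 4 and 591 to 955 across mutant libraries. All mutant libraries lay above all WT libraries, as in 3 of the 26 members and in 6.17% of all genes. The log2 difference of TBX20 was 2.22 ± 0.68 (SE). CTNNB1, which encodes beta-catenin, differed by 0.71 ± 0.28 (SE). It is also on the list of genes that deliver and hold the GJA1 product. Its groups did not overlap, so it is counted in both lists. FOS, of the AP-1 factor, differed by -2.55 ± 0.64 (SE) with overlap between mutant replicate 1 and WT replicate 4, and SOX17, an arterial endothelial factor, by -1.91 ± 0.48 (SE). SOX17 had 213 normalized counts in WT replicate 3, inside the mutant range of 129 to 213, against 737 to 1182 for the remaining wild-type libraries. The authors' deposited table calls TBX20 higher, as 1.32% of genes, and FOS and SOX17 lower, as 3.23% of genes.

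The genes whose profile over the 8 libraries was most like that of a connexin differed from member to member. Likeness was Pearson's r of log2 values across 8 libraries, among 10122 genes with a mean of at least 50 normalized counts. It is given as a description, since the libraries share their size factors and group differences. Closest to GJA1 were SRRM3, WDSUB1, CPT1B, FAM234B and SOX9, each with r = 0.98. CPT1B, the muscle form of carnitine palmitoyltransferase, had 7196, 6121, 2010 and 1087 normalized counts across wild-type replicates 1 to 4 and 5341 to 6583 across mutant libraries. Closest to GJC1 were RPS13 (r = 0.99), RPS25 (r = 0.98), RPL24 (r = 0.97), FIBP (r = 0.97) and RPL22 (r = 0.96), of which RPS13, RPS25, RPL24 and RPL22 encode cytosolic ribosomal proteins. Ribosomal protein genes have near-identical copies in the genome, so their counts are uncertain to that extent. RPS13 had 5916, 4840, 9495 and 4535 normalized counts across wild-type replicates 1 to 4 and 2932 to 3933 across mutant libraries. All 5 of these genes had each mutant count below each wild-type count, as GJC1 has and as 5.22% of the 11660 genes have. They were chosen for their likeness to GJC1 over these same libraries, so this is not a separate result. Closest to GJA4 were KLHL2, FKBP5 and KMT2B, and closest to GJA5 were MON2, ZNF333 and INTS6. FKBP5, a glucocorticoid-induced co-chaperone gene, had 1295, 2826, 5334 and 7799 normalized counts across wild-type replicates 1 to 4, the order of GJA4 there, and 1054 to 2463 in mutant libraries. Among the connexins themselves r was -0.79 between GJA1 and GJA4, -0.37 between GJA1 and GJC1, and -0.20 between GJA1 and GJA5. It was -0.56 between GJA5 and GJC1, 0.49 between GJA4 and GJC1, and 0.23 between GJA4 and GJA5.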

How the data were processed

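Polyadenylated RNA of 8 left ventricles was sequenced, per the labels' protocols. The deposited table holds 8 columns of signal, which per the file headers and values are read counts divided by 1 size factor per library. Beside them the authors deposited a log2 fold change, its standard error and test score, a p-value and an adjusted p-value. DESeq2 and the build GRCh38 are named, per the submitters' processing notes, although the samples are pig, with aligner, counter and strand setting not given in the sources used here. Coordinates are therefore left out, and antisense reads cannot be told apart. All values (100% within 1e-06 reads) were whole multiples of 1 read, and reads were recovered by division. Of 14720 rows, 2 name no gene (0.392% to 0.853% of reads) and were left out; 14504 of the other 14718 matched a pig symbol.

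Genes with at least 10 normalized counts in at least 4 libraries were tested with limma 3.58.1 (R 4.3.3; trended, robust prior) on log2(normalized count + 1), with Benjamini-Hochberg adjusted p-values over all genes and a threshold of 0.05. The fits were tested on simulated data with a shared mean profile for all libraries. The simulation lacked the mitochondrial difference and the divergence of WT replicates 3 and 4. It therefore cannot tell which fit suits these data. Alternatives were DESeq2 1.42.0 and edgeR 4.0.16 on recovered reads, TMM, quantile and nuclear-total rescaling, pseudocounts of 0.5 and 5, no filter or a minimum of 100, a plain prior, array weights, and libraries left out. DESeq2 with libraries left out was added after the data were seen. Ratios to GJA1 were tested by exact two-sided permutation over libraries. Members and gene lists were chosen with earlier results of these data known. Named genes are the connexins in the table, the 4 genes with the smallest p of each pathway list, and the genes most correlated with each member, 5 for GJA1 and GJC1 and 3 for the others; others are named as chosen after their values were seen. A few genes covered by this rule are not reported here. Marker scores are means over genes of log2 values minus their mean over 8 libraries. Shares have Wilson 95% intervals.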

Additional observations from a re-analysis of the deposited data

Results flagged for a closer look

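The share of GJA5 in connexin reads stood apart in 1 library. It was 38.0% in WT replicate 4 and 0.412% to 2.51% in the other WT libraries, a gap of 0.944 of the group's range, above the 95% critical value of Dixon's test for 4 samples. Of 28 groups of 4 values examined (counts, ratios and shares of the connexin genes in each genotype), this was the 1 that exceeded it, where chance gives about 1 in 20.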

How the results depend on the processing

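GJC1 was lower in mutant libraries in all 29 alternatives (-1.31 to -0.86), and GJA4 in all 29, though by -0.07 at the least. GJC1 was called in DESeq2 alone: at -1.19 with all libraries, at -0.94 without WT replicates 3 and 4 together, and in 5 of 8 fits with 1 library left out (-1.31 to -0.86). GJA1 turned to -0.46 in both limma and DESeq2 without WT replicates 3 and 4 together, and to -0.044 in DESeq2 without WT replicate 4 (with 1 library left out, -0.044 to 0.68 in DESeq2 and up to 1.17 in limma). GJA5 turned to -1.09 in DESeq2, -1.08 in edgeR and -0.61 in limma without WT replicate 3 (range with 1 library left out: -0.61 to 1.52 in limma, -1.47 to 0.73 in DESeq2, which gave no adjusted p without WT replicate 2). Ratios to GJA1 with 1 library left out were -2.42 to -1.38 for GJC1 and -1.13 to 1.34 for GJA5. Without WT replicates 3 and 4 they were -0.46 for GJC1, 0.39 for GJA4 and 0.92 for GJA5. The count of genes called was 0 in limma, 3 after quantile normalization, 92 with array weights, 12 without WT replicates 3 and 4, 0 to 3 with 1 library left out, 582 in DESeq2, 128 to 1027 in DESeq2 with 1 library left out and 698 in DESeq2 without WT replicates 3 and 4. The causes were not tested. The median of the promoter factor list was -0.12 without WT replicates 3 and 4. Among 16 other named genes no direction changed. The median log2 difference of all genes was 0.12, 0.20 with equal nuclear totals, 0.02 after quantile normalization and -0.06 in DESeq2. Per-length shares were not run, since no transcript length was used. No paired analysis was possible because the labels number the pigs separately. WT replicate 3, where 1 read is worth 4.84 normalized counts, sets the limit for low counts, such as the 6 reads of GJA5 in that library.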
